A study of Mus musculus with 11 samples.

Results

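Sterol synthesis was followed through 7 genes, chosen by their symbols as enzymes of the pathway: *Hmgcs1*, *Idi1*, *Fdft1*, *Sqle*, *Lss*, *Cyp51* and *Dhcr7*. All 7 were found among the 16755 genes listed. Maxillary molar tooth germs of C57BL/6 mouse embryos were taken at E14.5 for RNA sequencing, and 3 genotypes were compared: wild type (4 libraries), *Cilk1*-/- (4 libraries) and the compound mutant *Cilk1*-/-;PCS1–MRCS1△/△ (3 libraries). Each library is given as n = 6. The sources do not state whether 6 counts tooth germs or embryos, nor that the libraries of a genotype came from separate litters, so the p-values measure the spread between these libraries. The wild-type group is *Cilk1*+/+. *Cilk1*-/- embryos carry a germline deletion in *Cilk1*, a kinase of the primary cilium that is listed as *Ick*, made with EIIa-Cre, so the deletion is not limited to the tooth germ. The compound mutant is homozygous for the same deletion and for a deletion of oral enhancers of *Shh*, and no library carries the enhancer deletion alone. The compound mutant therefore differs from the wild type in both loci.

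Cholesterol is built from acetyl units through mevalonate, isoprenoid diphosphates, squalene and lanosterol. Its enzymes are switched on together by SREBP2, a transcription factor that is held inactive in the membrane by Insig proteins when sterol is plentiful. The Hedgehog pathway uses the product in more than one place: cholesterol is attached to the Shh ligand, and sterols in the ciliary membrane are needed for Smoothened (Smo) to signal, a step that the receptor Ptch1 holds back. Hedgehog signals from the dental epithelium are known to set the number and size of molars.

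The deposited values are on a log2 scale, probably log2(value + 1) of FPKM, although some genes have a value below 0, which that formula alone cannot give. All levels and differences below are on the deposited scale, and a change in value + 1 holds only if the offset is 1. Turned back from the log, they summed to between 339970 and 364615 per library, but the number of reads is unknown, so the precision rests on the spread between libraries. In these values, the libraries of wild type and *Cilk1*-/- that share a replicate number deviated in opposite directions from their genotype means (r from −0.89 to −0.74 over all genes), so they are not independent. For compound mutant replicates 1 to 3, r with the same number was 0.14, −0.04 and 0.26 in wild type and 0.03, 0.04 and −0.12 in *Cilk1*-/-. A fit that blocks on this number supplies a second adjusted p beside each result that it ends, although the compound mutant did not share that pattern. A difference was called when its adjusted p in limma was under 0.05 and its fold change at least 1.5. The deleted gene itself, *Cilk1* (*Ick*), read 3.47, 3.58, 3.45 and 3.60 in the wild type, 2.86, 2.72, 2.84 and 2.76 in *Cilk1*-/-, and 2.67, 2.65 and 2.60 in the compound mutant, so that every library stood on the side of its label for the *Cilk1* deletion. These values cannot check the label of the enhancer deletion. Dental epithelium and dental mesenchyme markers were present in every library. Compound mutant replicate 1 stood apart in 5 marker sums, with 197 for 8 neuron markers against 17.6 to 62.2 in the other 10 libraries, 47.1 for 7 Schwann cell and glia markers against 21.1 to 27.6, 504 for 8 bone and cartilage markers against 59.1 to 255, and the lowest sums of 8 epithelial (537) and 8 mesenchymal (373) markers. Replicate 3 of that genotype had the lowest sum of 8 erythroid markers, 1060 against 2870 to 4160, and the highest *Shh*.

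Promoters of the members were looked up because SREBP2 is known to act beside the factors NF-Y and Sp1. RefSeq promoters of GRCm38.p6, each holding the 250 bases before a gene's start and the 50 after it, were found for 5 of the 7 members. None was found for *Sqle* or *Fdft1*. The 3 shown are *Hmgcs1* (chr13:119690101-119690400, plus strand), the one member with a match to the sterol element core, *Idi1* (chr13:8885356-8885655, plus strand), the member whose means differed least between wild type and *Cilk1*-/-, and *Lss* (chr10:76531355-76531654, plus strand), the member that passed the test. Capitals mark matches, on either strand, to the sterol element core CACCCCA, the SREBP consensus TCANCCCA, the NF-Y box CCAAT and the Sp1 box GGGCGG.
Hmgcs1: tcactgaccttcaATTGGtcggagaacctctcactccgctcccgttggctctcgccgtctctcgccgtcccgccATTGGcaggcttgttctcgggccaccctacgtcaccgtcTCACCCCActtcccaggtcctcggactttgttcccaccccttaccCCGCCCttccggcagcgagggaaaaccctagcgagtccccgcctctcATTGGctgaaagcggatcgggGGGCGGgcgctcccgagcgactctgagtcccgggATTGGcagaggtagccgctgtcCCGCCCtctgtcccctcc
Idi1: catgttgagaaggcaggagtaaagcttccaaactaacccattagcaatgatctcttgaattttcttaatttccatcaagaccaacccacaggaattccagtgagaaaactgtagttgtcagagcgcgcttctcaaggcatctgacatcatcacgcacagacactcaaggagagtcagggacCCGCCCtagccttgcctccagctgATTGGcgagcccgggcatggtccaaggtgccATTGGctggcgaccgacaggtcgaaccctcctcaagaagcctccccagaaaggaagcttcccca
Lss: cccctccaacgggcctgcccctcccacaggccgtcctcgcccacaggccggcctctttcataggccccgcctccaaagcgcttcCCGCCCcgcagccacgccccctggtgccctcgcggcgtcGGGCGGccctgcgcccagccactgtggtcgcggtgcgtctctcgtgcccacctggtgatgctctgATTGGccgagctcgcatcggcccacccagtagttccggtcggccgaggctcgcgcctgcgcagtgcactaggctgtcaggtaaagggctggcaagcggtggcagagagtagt
The CACCCCA match of *Hmgcs1* began at position −136 from the start and lay inside its TCANCCCA match. CACCCCA was present in 7.62% and TCANCCCA in 4.98% of the 32851 promoters in the table, and 1 of the 5 members had either. CCAAT was present in 37.4% of all promoters, GGGCGG in 35.7% and both in 12.8%, and each was found in a promoter of 5 of the 5 members. Of the 3 listed starts of *Dhcr7*, one had both boxes, one had GGGCGG alone and one had neither. Such matches describe the letters in these windows only.

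In the wild type, the member with the highest level was *Hmgcs1* and the lowest *Lss*. If the values are per gene length, as FPKM are, the mean levels ran from *Hmgcs1* at 6.08 ± 0.07 (SD, n = 4) through *Sqle* at 5.30 ± 0.06, *Cyp51* at 4.81 ± 0.06, *Fdft1* at 4.75 ± 0.05, *Idi1* at 4.21 ± 0.11 and *Dhcr7* at 4.19 ± 0.06 to *Lss* at 3.91 ± 0.05. *Cyp51* and *Fdft1* overlapped between libraries, as did *Idi1* and *Dhcr7*, and the other neighbours in this order did not. *Cilk1*-/- had the same order, and in the compound mutant *Fdft1* (4.69) stood above *Cyp51* (4.60), with overlapping libraries. All 7 members were above the middle of the listed genes, from the 67.5th percentile (*Lss*) to the 95.02nd (*Hmgcs1*).

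The first comparison asks what loss of *Cilk1* did to the pathway. Each of the 7 members had a lower mean in *Cilk1*-/- than in the wild type, with log2 differences from −0.31 to −0.04 and a median of −0.15, against a median of 0.0032 over all genes. None passed the test, and the difference of *Sqle* came nearest. Over all genes, 48.8% had a lower mean. No member was called, where 0.37% of all genes were called in either direction, and 0 of 7 had an adjusted p under 0.05, where 1.38% of all genes did and were lower. At an unadjusted p under 0.05, 3 of 7 were lower (11.1% of all genes), and 4 of 7 had every *Cilk1*-/- library below every wild-type library (10.7% of all genes).

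The second asks what the compound mutant showed. Again each of the 7 had a lower mean than in the wild type, with differences from −0.34 to −0.06 and a median of −0.15, against −0.0016 over all genes. *Lss* was lower at an adjusted p under 0.05 and the other 6 were not. No member was called, where 1.25% of all genes were, and 1 of 7 was lower at an adjusted p under 0.05, where 3.75% of all genes were. At an unadjusted p under 0.05, 4 of 7 were lower (13.8% of all genes), and 2 of 7 did not overlap with the wild type (9.05% of all genes). Over all genes, 50.6% had a lower mean. The count of 7 lower means rests on compound mutant replicate 3: without it 4 of 7 were lower and the median was −0.10.

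Between the compound mutant and *Cilk1*-/-, 4 of 7 members were lower and 3 higher, with a median of −0.02. None was called or had an adjusted p under 0.05, where 0.543% of all genes were called and 2.15% were lower at that adjusted p. *Lss* alone was lower at an unadjusted p under 0.05 (12.3% of all genes), and no member was without overlap (9.3% of all genes). These comparisons share libraries, so the members' differences in one are not independent of those in another.

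**Figure D1:**
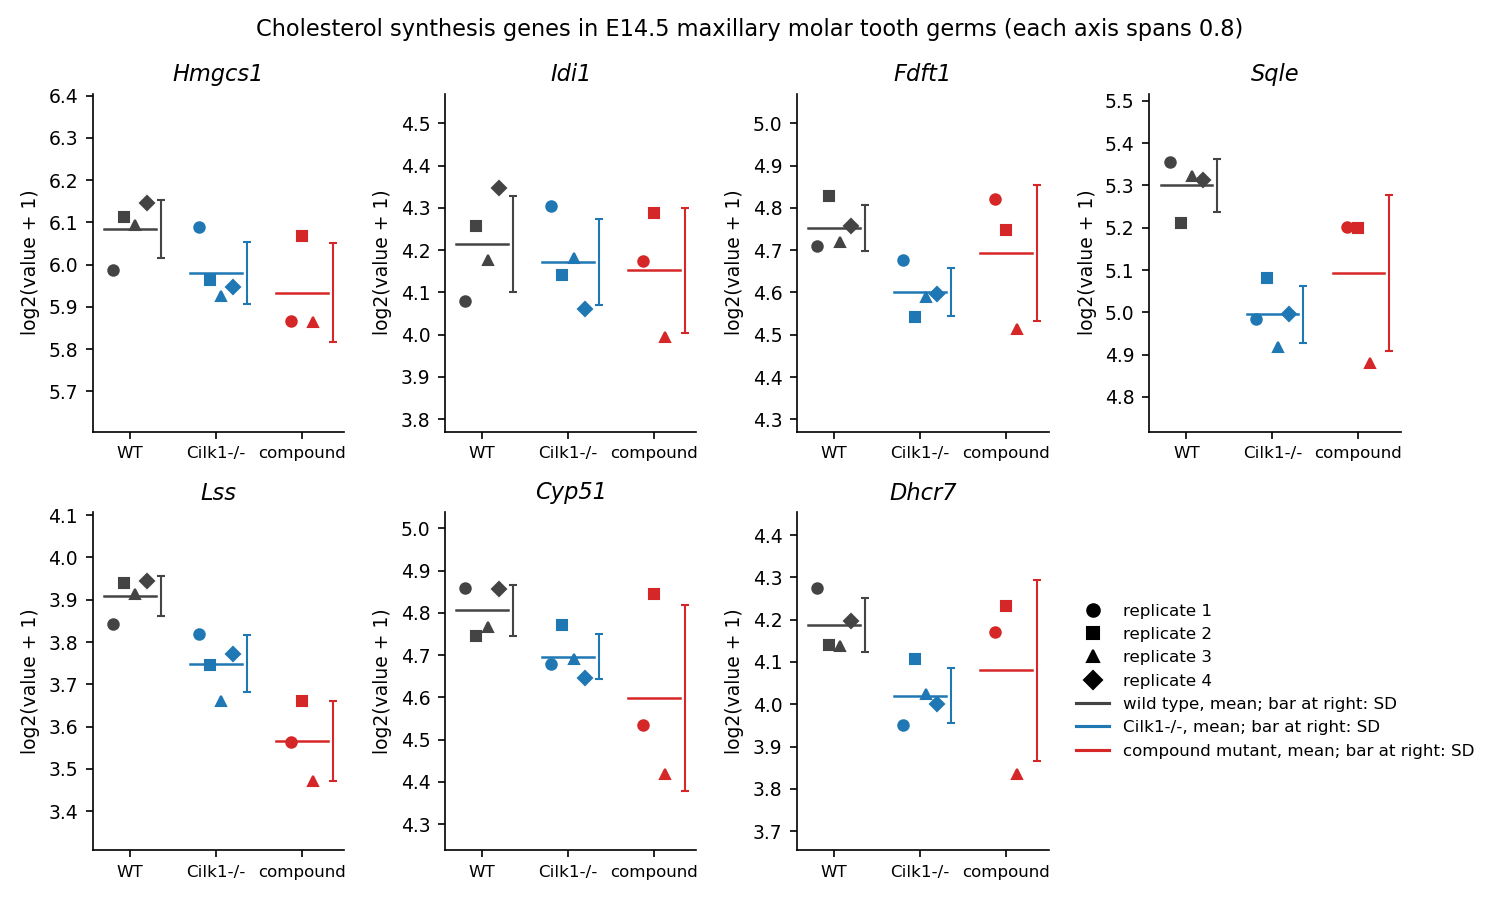
Log2(value + 1) of each member in each library, by genotype, with every vertical axis spanning the same range. Horizontal lines are means and bars at the right are SDs (n = 4, 4 and 3), marker shape gives the replicate number, and compound mutant replicate 3 (red triangle) is the lowest of the 11 libraries in all 7 panels.

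*Hmgcs1* makes HMG-CoA, an early intermediate on the way to mevalonate. It read 5.99, 6.11, 6.09 and 6.14 in wild-type replicates 1 to 4, 6.09, 5.96, 5.92 and 5.95 in *Cilk1*-/- and 5.87, 6.07 and 5.86 in the compound mutant. Wild-type replicate 1 and *Cilk1*-/- replicate 1 were each apart from the rest of their genotype, in opposite directions, and the 3 genotypes overlapped. The differences from the wild type were −0.10 ± 0.06 (SE, adjusted p = 0.353) and −0.15 ± 0.06 (adjusted p = 0.165).

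*Idi1* interconverts the isoprenoid diphosphates from which squalene is assembled. Its levels were 4.08, 4.26, 4.18 and 4.35 in the wild type, 4.30, 4.14, 4.18 and 4.06 in *Cilk1*-/- and 4.17, 4.29 and 3.99 in the compound mutant. The genotypes overlapped over most of their ranges. The differences, −0.04 ± 0.08 (adjusted p = 0.811) and −0.06 ± 0.08 (adjusted p = 0.668), were smaller than their errors. *Idi2*, a related gene, is also listed, and how reads shared by the pair were counted is not stated.

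*Fdft1*, squalene synthase, commits the pathway to sterols. It stood at 4.71, 4.83, 4.72 and 4.76 in the wild type, 4.68, 4.54, 4.59 and 4.60 in *Cilk1*-/- and 4.82, 4.75 and 4.51 in the compound mutant. All *Cilk1*-/- libraries were below the wild type, while compound mutant replicates 1 and 2 were within its range and replicate 3 was below it. The difference was −0.15 ± 0.06 in *Cilk1*-/- (adjusted p = 0.203) and −0.06 ± 0.07 in the compound mutant (adjusted p = 0.605). The gene (chr14:63145150-63179578, minus strand, GRCm38) overlaps *Ctsb* on the other strand, and since the strand setting of the counting is not stated, reads from that overlap cannot be assigned.

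*Sqle*, squalene epoxidase, is an oxygen-dependent step and a second point of control. The libraries read 5.35, 5.21, 5.32 and 5.31 in the wild type, 4.98, 5.08, 4.92 and 4.996 in *Cilk1*-/- and 5.20, 5.20 and 4.88 in the compound mutant. *Cilk1*-/- lay clear below the wild type, and compound mutant replicates 1 and 2 were just under the lowest wild-type library. The difference in *Cilk1*-/- was −0.31 ± 0.07 (a change of −19.1% in value + 1), the widest gap of any member in that comparison, with adjusted p = 0.0544 in limma. Its adjusted p was under 0.05 in 5 of 19 alternative fits and 0.176 with the replicate number as a block. In the compound mutant the difference was −0.21 ± 0.08 (adjusted p = 0.126).

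*Lss*, lanosterol synthase, closes the sterol rings. It read 3.84, 3.94, 3.91 and 3.94 in the wild type, 3.82, 3.74, 3.66 and 3.77 in *Cilk1*-/- and 3.56, 3.66 and 3.47 in the compound mutant. The compound mutant lay below the wild type in every library, and its highest library equalled the lowest of *Cilk1*-/- to 2 decimals. *Lss* fell in the compound mutant by 0.34 on the log2 scale (SE 0.05, 95% interval −0.47 to −0.22, a change of −21.3% in value + 1), with adjusted p = 0.00967. The adjusted p stayed under 0.05 in 16 of 19 alternative fits, among them the 11 that each left out 1 library. It was 0.0871 with the replicate block, 0.0687 in a fit of these 2 genotypes alone and 0.105 with a term for library set. Of the sets formed here, the first held replicates 1 to 3 of wild type and *Cilk1*-/-, and the second all other libraries. The difference in *Cilk1*-/- was −0.16 ± 0.05 (adjusted p = 0.111), and that between the mutants was −0.18 ± 0.05 (adjusted p = 0.0859). *Lss* (chr10:76531588-76557138, plus strand) overlaps the listed antisense gene *4930483K19Rik*.

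*Cyp51* is the demethylase that acts on lanosterol. Its levels were 4.86, 4.74, 4.77 and 4.86 in the wild type, 4.68, 4.77, 4.69 and 4.64 in *Cilk1*-/- and 4.53, 4.84 and 4.42 in the compound mutant. Compound mutant replicates 1 and 3 were the lowest of all libraries, and replicate 2 was inside the wild-type range. The differences were −0.11 ± 0.08 (adjusted p = 0.469) and −0.21 ± 0.08 (adjusted p = 0.155). Without replicate 2 of the compound mutant, the adjusted p of the second was 0.00483, the only 1 of 19 alternative fits under 0.05. That fit had 3312 genes with an adjusted p under 0.05 in this comparison, against 1102 in the main fit. The gene overlaps *Akap9* on the other strand.

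*Dhcr7* reduces the last precursor to cholesterol, and loss of its human counterpart causes Smith-Lemli-Opitz syndrome. It stood at 4.27, 4.14, 4.14 and 4.20 in the wild type, 3.95, 4.11, 4.02 and 3.9998 in *Cilk1*-/- and 4.17, 4.23 and 3.84 in the compound mutant. *Cilk1*-/- was below the wild type in every library, and compound mutant replicates 1 and 2 were inside the wild-type range. The differences were −0.17 ± 0.08 (adjusted p = 0.261) and −0.11 ± 0.09 (adjusted p = 0.439).

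The spread of the members in the compound mutant ran through them together. Replicate 3 was the lowest of the 11 libraries for 7 of 7 members, and replicate 2 the highest of its genotype for 5 of 7. As the mean of the 7, each centred on its own mean, the wild-type libraries lay at 0.08, 0.10, 0.08 and 0.14, *Cilk1*-/- at −0.01, −0.03, −0.08 and −0.08, and the compound mutant at −0.03, 0.07 and −0.23. *Cilk1*-/- was below the wild type in all 4 libraries by this mean, and the compound mutant ran from just under the lowest wild-type library to below every *Cilk1*-/- library. The 14 other steps had the same order of libraries in the compound mutant, at −0.05, 0.08 and −0.22. Over the 11 libraries, the 21 pairs of members had a median Pearson's r of 0.60, and 0.53 for deviations from the genotype mean, with all 21 above 0. These points share libraries and their scaling. Genes outside the lists also followed the mean of the 7, such as *Mcrs1* (Pearson's r = 0.978, and 0.952 for deviations). It was picked for having the highest r among genes with a mean of at least 1, so it cannot show whether moving together was particular to the pathway. How often other sets of genes move together to this degree was not tested.

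**Figure D2:**
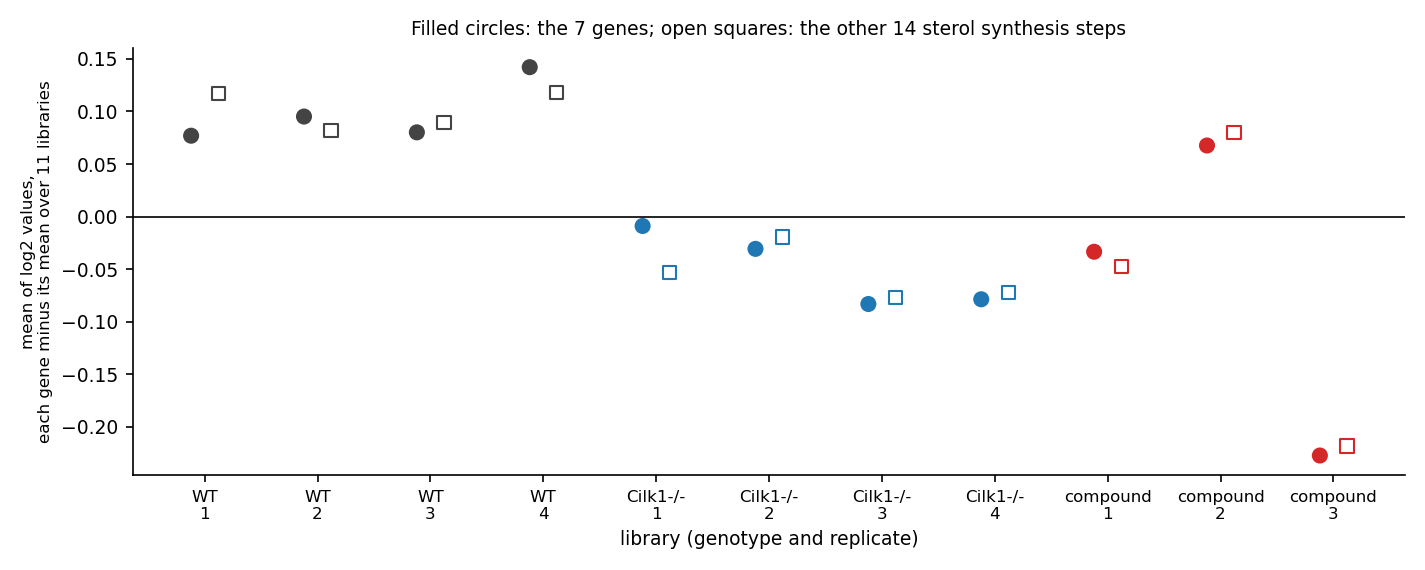
Mean of the centred log2 values in each of the 11 libraries, for the 7 members (filled circles) and the 14 other sterol synthesis steps (open squares), coloured by genotype. Wild-type libraries lie between 0.08 and 0.14 for the members, *Cilk1*-/- libraries all below 0, and compound mutant replicates 2 and 3 lie at 0.07 and −0.23 for the members.

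Within the first and second library sets, most members were again lower than in the wild type. In the first set, with 3 wild-type and 3 *Cilk1*-/- libraries, 6 of 7 members were lower and the median difference was −0.15. In the second set, with 1 library of each, 7 of 7 were lower (median −0.20), and the compound mutant, all of which is in that set, was lower in 7 of 7 against its 1 wild-type library (median −0.21). That wild-type library had the highest mean of the 7 members of all libraries, at 0.14. Against the 1 *Cilk1*-/- library of the second set, 3 of 7 members were lower in the compound mutant (median 0.08). Of all genes, 49.4% were lower in the first set. In the second, 51.0% (*Cilk1*-/-) and 50.3% (compound mutant) were lower than in the wild type, and 48.7% between the mutants. The differences within a set were not tested.

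Most of the 14 other steps of the pathway also had lower means. Of these, 13 had a lower mean in *Cilk1*-/- (median −0.19) and 13 in the compound mutant (median −0.15). The exception, chosen here for its values, was *Tm7sf2*, a sterol reductase, at 0.07 and 0.19. At an adjusted p under 0.05, 1 of 14 was lower in *Cilk1*-/- (1.38% of all genes) and 3 of 14 in the compound mutant (3.75% of all genes). None of the 14 was called in either, where 0.37% and 1.25% of all genes were called, and none was under 0.05 with the replicate block.

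*Sc5d*, a late desaturase named here because it passed the test, fell by 0.19 on the log2 scale (adjusted p = 0.0428) in the compound mutant, with 0.209 under the block. *Msmo1*, a methyl oxidase, differed by −0.14 ± 0.10 (adjusted p = 0.456) and −0.26 ± 0.10 (adjusted p = 0.151).

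**Figure D3:**
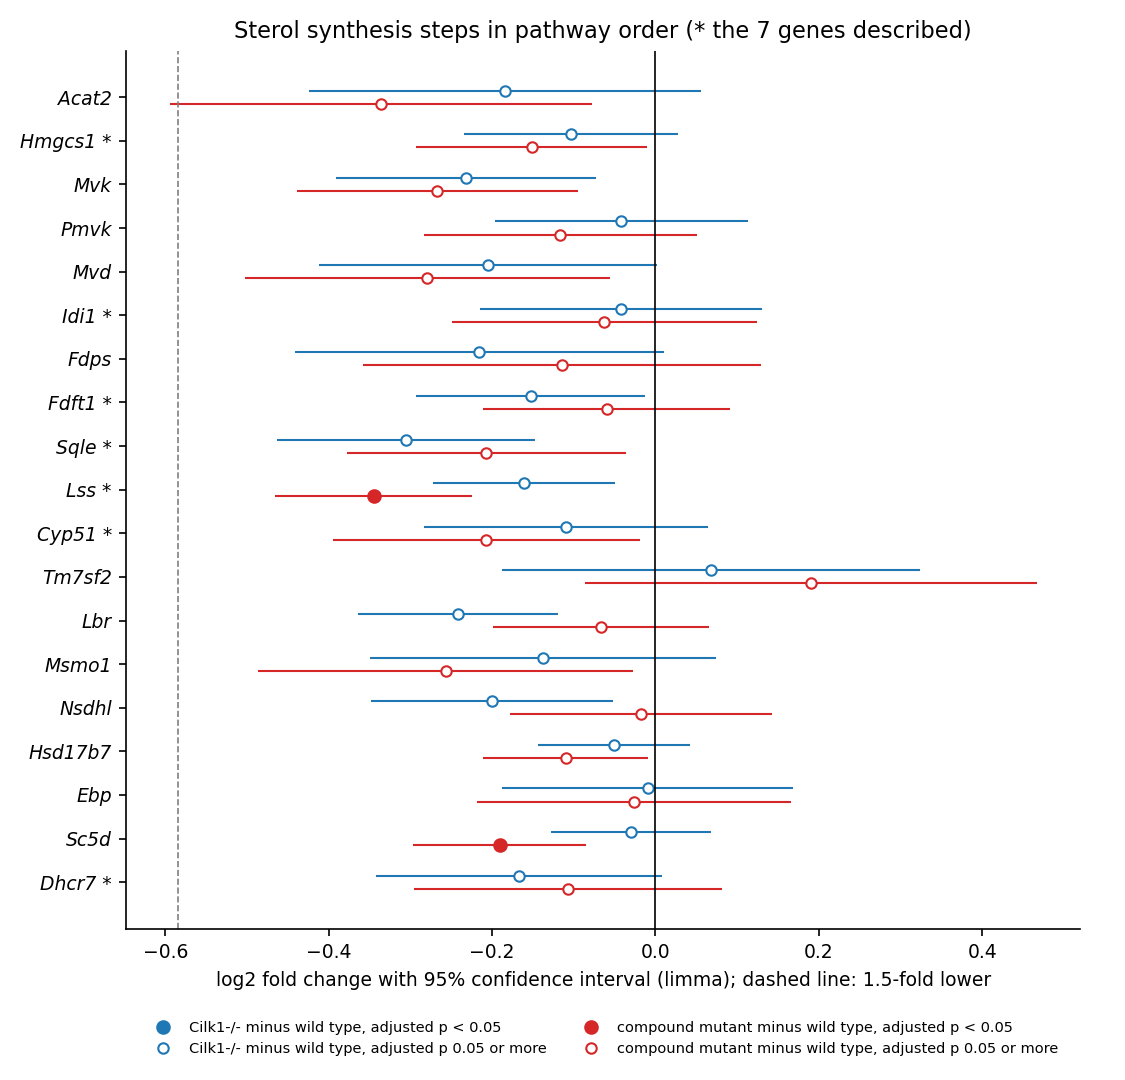
Log2 fold change of 19 sterol synthesis steps against the wild type with 95% confidence intervals from limma, for *Cilk1*-/- (blue) and the compound mutant (red), in pathway order, with asterisks at the 7 members. Filled points had an adjusted p under 0.05, 18 of 19 points lie below 0 in each comparison, and none passes the dashed line at a 1.5-fold lower value.

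Of 13 genes that control SREBP, 12 had a lower mean in *Cilk1*-/- (median −0.13) and 9 in the compound mutant (median −0.04). *Insig1*, itself an SREBP target, read 4.59, 4.58, 4.68 and 4.71 in the wild type, 4.41, 4.44, 4.22 and 4.31 in *Cilk1*-/- and 4.40, 4.42 and 4.22 in the compound mutant. It fell by 0.29 (adjusted p = 0.0427) and by 0.29 (adjusted p = 0.0343) on the log2 scale, with 0.165 and 0.155 under the replicate block. *Srebf2*, the gene of SREBP2, differed by −0.14 ± 0.05 (adjusted p = 0.173) and −0.04 ± 0.06 (adjusted p = 0.665).

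Among 14 genes of uptake and transport, 7 had a lower mean in *Cilk1*-/- and 6 did so in the compound mutant, with medians of 0.0025 and 0.02. None was called in either, where 0.37% and 1.25% of all genes were called.

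Genes that remove or store sterol did not follow the synthesis steps. Of 11 listed, 8 had a higher mean in each mutant, with medians of 0.05 and 0.16, and none was higher at an adjusted p under 0.05. *Abcg1*, chosen here for its values, differed most, by 0.79 in the compound mutant (adjusted p = 0.054, 0.173 under the block). It read 3.14, 2.06 and 2.25 there, highest in replicate 1, against 1.54 to 1.83 in the wild type. The lowest unadjusted p of this group in *Cilk1*-/- was that of *Cyp46a1*, a sterol hydroxylase, at 0.25 (adjusted p = 0.313). *Abca1*, the exporter that is induced by oxysterols, read 3.01, 3.12, 3.07 and 3.11 in the wild type, 3.20, 3.06, 3.14 and 3.12 in *Cilk1*-/- and 2.78, 2.66 and 2.98 in the compound mutant. It was lower in the compound mutant in every library, and fell by 0.27 (adjusted p = 0.0475) against the wild type and by 0.32 (adjusted p = 0.0405) against *Cilk1*-/-, with 0.183 and 0.215 under the block.

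Fatty acid targets of SREBP had a lower mean in 10 of 11 genes in *Cilk1*-/- (median −0.10) and in 9 of 11 in the compound mutant (median −0.18). *Fads1*, a desaturase, fell by 0.31 in *Cilk1*-/- (adjusted p = 0.0452, 0.161 under the block), and *Acaca*, which makes malonyl-CoA, fell by 0.23 in the compound mutant (adjusted p = 0.0242, 0.155 under the block). *Fasn*, fatty acid synthase, differed by −0.10 ± 0.06 (adjusted p = 0.43) and −0.07 ± 0.07 (adjusted p = 0.539). Of 8 genes of the isoprenoid side branches, 6 had a lower mean in *Cilk1*-/- and 5 did so in the compound mutant, with medians of −0.02 in both. *Pdss1*, which builds the tail of coenzyme Q, fell by 0.27 in *Cilk1*-/- (adjusted p = 0.0451, 0.23 under the block), and *Pggt1b*, a prenyltransferase subunit, differed by −0.21 in the compound mutant (adjusted p = 0.18).

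**Figure D4:**
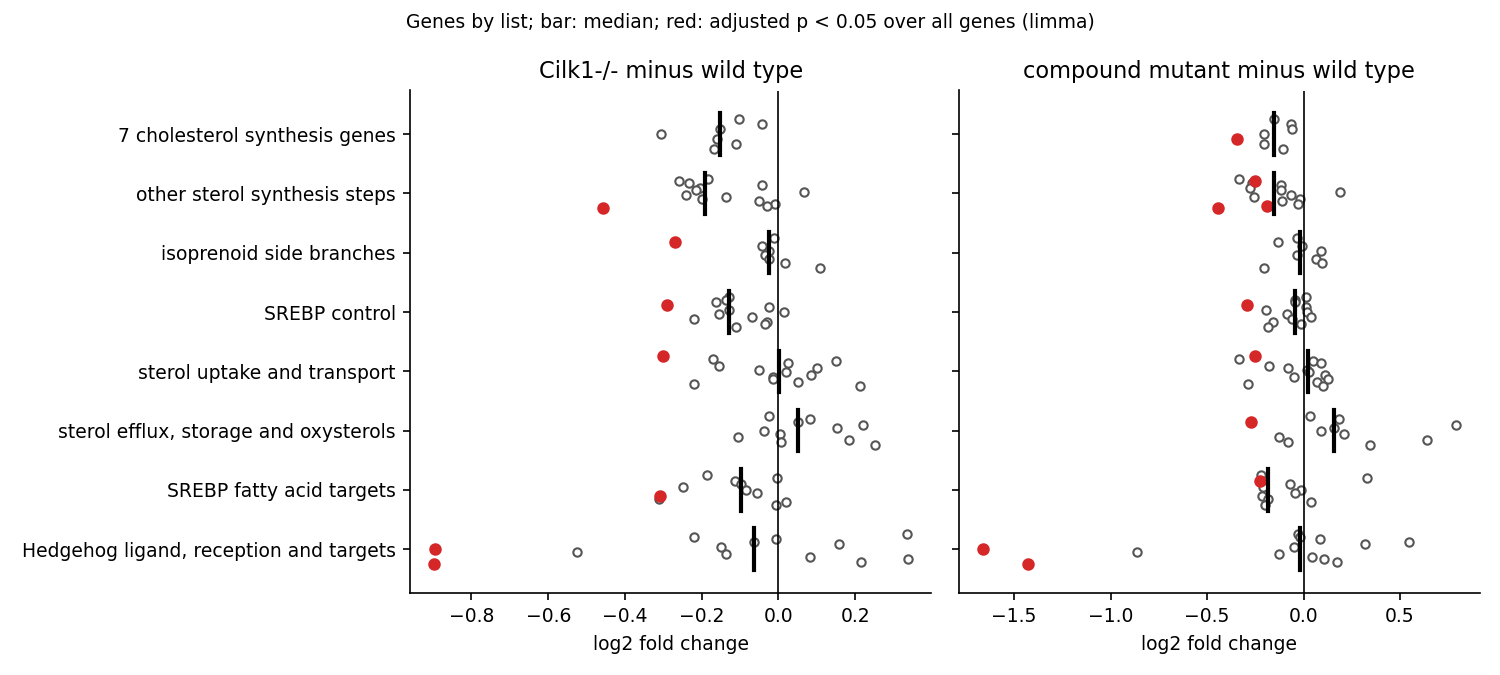
Log2 fold change against the wild type of the genes of each pathway list, in *Cilk1*-/- (left) and the compound mutant (right), on axes of different range. Bars are list medians and red points had an adjusted p under 0.05 in limma. The medians of the synthesis steps lie between −0.19 and −0.15, and those of the efflux genes at 0.05 and 0.16.

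Of 13 genes that make, release, receive or report the Hedgehog signal, 8 had a lower mean in *Cilk1*-/- and 7 did so in the compound mutant, and 2 were called lower in each, *Ptch1* and *Gli1*, both targets of the pathway. *Ptch1* read 5.96, 6.16, 5.98 and 6.18 in the wild type, 5.20, 5.14, 5.26 and 5.11 in *Cilk1*-/- and 3.82, 4.45 and 4.95 in the compound mutant. The genotypes were apart in every library. *Ptch1* fell by 0.89 (adjusted p = 0.0374, 0.149 under the block) and by 1.66 (adjusted p = 0.00284, 0.0341 under the block), and *Gli1* by 0.90 (adjusted p = 0.0343, 0.149 under the block) and by 1.43 (adjusted p = 0.005, 0.0473 under the block) on the log2 scale. With a term for library set in limma, neither gene stayed under 0.05. The adjusted p of *Ptch1* was then 0.075 in *Cilk1*-/- and 0.0545 in the compound mutant, and that of *Gli1* 0.069 and 0.085. Compound mutant replicate 3 had the highest *Ptch1* of its genotype and the lowest value of all 7 sterol members.

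*Smo* read 6.19, 6.00, 6.09 and 6.09 in the wild type, 5.87, 6.04, 5.94 and 5.97 in *Cilk1*-/- and 5.90, 6.03 and 5.97 in the compound mutant, with overlap between genotypes. It differed by −0.14 ± 0.05 (adjusted p = 0.166) and −0.13 ± 0.06 (adjusted p = 0.169). *Shh*, whose product carries cholesterol, read 4.76, 4.93, 5.18 and 4.18 in the wild type, 4.79, 5.004, 4.93 and 5.66 in *Cilk1*-/- and 3.66, 4.02 and 6.51 in the compound mutant. Compound mutant replicate 3 was the highest of all libraries although it lacks oral enhancers of *Shh* by its label, and the other two were the lowest. The differences were 0.33 ± 0.53 (adjusted p = 0.775) and −0.03 ± 0.57 (adjusted p = 0.982).

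Markers of other cells and of division also differed between the genotypes. The summed level of 7 proliferation markers was 446 to 504 in the wild type, 363 to 415 in *Cilk1*-/- and 365 to 456 in the compound mutant, and 7 of 7 were lower in each mutant (medians −0.27 and −0.31). The sum of 8 neuron markers was 17.6 to 23.4, 28.9 to 31.9 and 33.6 to 197, with 8 of 8 higher in each mutant. That of 7 skeletal muscle markers was 9.96 to 30.5, 19.6 to 55.9 and 8.09 to 9.38, and that of 3 hepatocyte markers was 2.52 to 9.66, 0.275 to 2.14 and 0.0976 to 1.01, with 3 of 3 lower in each mutant (medians −0.99 and −1.32). None of the markers of these 4 lists was at 0 in every library. Called against the wild type were *Krt15*, an epithelial keratin, at 0.63 in *Cilk1*-/- (adjusted p = 0.0436, 0.0846 under the block), and in the compound mutant the neuronal *Tubb3* at 1.503 (0.0268, 0.127 under the block) and *Isl1* at 0.95 (0.019, 0.0971 under the block) and the hepatocyte *Afp* at −1.90 (0.0489, 0.19 under the block) and *Apoa1* at −1.32 (0.0294, 0.157 under the block). The hepatocyte calls rest on values near or below 0 in the compound mutant. *Afp* ran there from −0.45 to 0.57, against 1.11 to 2.81 in the wild type, and *Apoa1* from −0.19 to 0.54, against 0.97 to 1.91. Called between the mutants were *Krt15* at −1.06 (adjusted p = 0.00933, 0.0459 under the block) and the muscle actins *Acta1* at −1.71 (0.0417, 0.218 under the block) and *Actc1* at −2.35 (0.0223, 0.181 under the block). Of all genes, 0.37% were called in *Cilk1*-/- and 1.25% in the compound mutant against the wild type, and 0.543% between the mutants. The part of these markers in the lower levels of the members was not tested, and in bulk samples fewer cells of a type and less RNA per cell cannot be told apart. *Lss* differed between the compound mutant and the wild type by −0.30 to −0.39 in the 11 fits without 1 library. Those fits cannot address the markers, since the neuron sum was above the wild type in every library of both mutants.

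Among the genes outside the lists whose values were most like the mean of the 7 members over the 11 libraries were *Mcrs1* (Pearson's r = 0.978), *Sssca1* (0.969), *Snap47* (0.969), *Slc25a14* (0.968), *Snx17* (0.967), *Rpa1* (0.967) and *Cand2* (0.966). They are given as a description of these libraries.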

How the data were processed

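Poly-A RNA of 11 libraries was sequenced on an Illumina platform and, per the labels and the study's methods, mapped to mm10 with HISAT2 2.0.5 and counted per gene with featureCounts 1.5.0-p3, after which the authors calculated FPKM. The deposited table holds log2 values of 16755 genes, probably log2(FPKM + 1), although in 257 genes a value lies below 0, which that transformation alone cannot give. Whether another offset, another transformation or a later adjustment was used is not given in the sources used here. Read totals were not used and depth is unknown.

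Groups came from the labels. The 3 genotypes were fitted together with limma 3.58.1 in R 4.3.3 (lmFit, eBayes with trend and robust) over all 16755 genes without a filter or covariates, with the Benjamini-Hochberg adjustment. A call needed an adjusted p under 0.05 with a fold change of 1.5 or more. The fit was tested on simulated data. Intervals are 95% intervals from limma. A fold change on the log2(value + 1) scale understates that of low genes.

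The members and lists were chosen with earlier results of these data known. Named by rule are the members, 12 fixed genes, every called gene of a pathway list or else that of lowest p against the wild type, called markers, and the 8 genes closest to the members' mean. Some genes that the rule names are not reported here. *Hsd11b1*, *Ckm*, *Adgre1*, *Ttr* and *Serpina1a* were not listed. Alternatives were a fit of 2 genotypes, the replicate number as a block, the library set formed here (first: replicates 1 to 3 of wild type and *Cilk1*-/-, second: all others) as a term, eBayes without trend and robust, a mean of at least 1, a pseudocount of 0.1, quantile normalization, median centring, other thresholds and leaving out each library. Gene positions are from GENCODE M21 (GRCm38) and promoters from RefSeq.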

Additional observations from a re-analysis of the deposited data

Results flagged for a closer look

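Wild-type replicate 4 stood apart for *Fasn*, at 5.48 against 5.30 to 5.31 in the other 3 wild-type libraries. It was found by a comparison of the highest or lowest library with its own group in 38 groups of 4 libraries, and chance gives such a gap in about 1 of 20 groups.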

How the results depend on the processing

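No member was called in any comparison under the 19 alternative fits. With no fold change threshold, 1 member (*Lss*) passed in the compound mutant. The members' median against the wild type ranged from −0.17 to −0.12 in *Cilk1*-/- and from −0.22 to −0.10 in the compound mutant. Leaving out 1 library in turn, 4 to 7 members were lower in the compound mutant, with 4 when its replicate 3 was left out. The log2 difference then crossed 0 for *Idi1* in *Cilk1*-/- (−0.0879 to 0.00156), for *Idi1* (−0.13 to 0.0164), *Fdft1* (−0.12 to 0.031), *Dhcr7* (−0.18 to 0.0148), *Srebf2* (−0.0835 to 0.0099), *Fasn* (−0.11 to 0.0066) and *Shh* (−0.92 to 0.51) in the compound mutant against the wild type, and for *Idi1* (−0.0876 to 0.059) and *Dhcr7* (−0.0168 to 0.18) between the mutants. The cause was not tested.

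A fit of 2 genotypes alone brought 4 of 7 members to an adjusted p under 0.05 in *Cilk1*-/-. These were *Sqle* (0.00554), *Lss* (0.0356), *Fdft1* (0.0364) and *Dhcr7* (0.038). In that fit 2544 genes, in either direction, had an adjusted p under 0.05 in this comparison, against 409 in the main fit. The rise was therefore not limited to the members. Over all genes, the calls were 62, 209 and 91 in *Cilk1*-/- against the wild type, the compound mutant against the wild type and between the mutants. They became 130, 34 and 1 with 2 genotypes, 4, 26 and 2 with the replicate block, 37, 18 and 1 with the library set as a term, and 123, 547 and 294 with a pseudocount of 0.1. Leaving out 1 library gave 15 to 95, 80 to 671 and 36 to 360.

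Libraries of the wild type and of *Cilk1*-/- with one number deviated from their genotype means in opposite directions, with correlations of −0.74, −0.89, −0.85 and −0.79 over all genes, so they are not independent and the p-values without the block may be too small. The compound mutant did not share this pattern, with r from −0.12 to 0.26 against libraries of the same number. The numbers were not taken as pairs of litters. With the replicate block, *Lss* differed by −0.34 in the compound mutant, and no member had an adjusted p under 0.05.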
